A study of Mus musculus with 8 samples.

Results

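The genes described here are 37 cell cycle and DNA replication genes of the mouse, chosen by name as the rows of the deposited expression table that carry their identifiers. All 37 were found among the 22962 genes of the table, and all 37 passed the filter on low values that left 12060 genes to test. They comprise 14 genes of S phase and its entry, 22 genes of mitosis, and cyclin D1 (Ccnd1), which acts in G1. They were measured in stromal vascular cells of gonadal fat from wild-type (WT) mice, and the labelled cell type is mature adipocyte. DoxSa was given to 4 cultures, and the vehicle DMSO to 4 others, on day 6 in both groups. The series is about 1-deoxysphingolipids, an atypical class of sphingolipid that lacks a hydroxyl group of the usual ones; the labels do not spell out DoxSa. The sources used here give no age, sex or dose, and do not say whether the 4 libraries of a group came from separate animals. The p-values therefore reflect the spread among these libraries alone, and it may be technical.

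The values are FPKM, fragments scaled to gene length and to the counted fragments of the library, so that levels can be compared between genes. The whole read counts behind them were recovered, and gave 39213008 to 41365861 reads per library. Both groups held adipocytes by their defining genes: Adipoq averaged 772 FPKM in DoxSa cells and 774 FPKM in DMSO cells, and Fabp4 averaged 8852 FPKM in DoxSa cells and 8698 FPKM in DMSO cells. They also held RNA of other cells. The 11 macrophage markers summed to 7026 to 7505 FPKM in DoxSa cells and 6298 to 7254 FPKM in DMSO cells, and 3 of the 11 (Cd14, Fcgr1 and Ptprc) were higher in DoxSa cells. The 7 smooth muscle and pericyte markers summed to 410 to 465 FPKM in DoxSa cells and 585 to 652 FPKM in DMSO cells, and 4 of the 5 tested (Acta2, Myh11, Cnn1 and Tagln) were lower in DoxSa cells. Of the 8 progenitor markers tested, 1 (Pdgfrb) was lower in DoxSa cells, and of the 10 adipocyte markers 1 (Retn). The markers named as higher or lower passed an adjusted p under 0.05 by the limma test described below. Over all tested genes that test called 3.88% higher and 2.02% lower. Lymphocyte markers were at or near 0, and 1 of 7 endothelial and 1 of 6 mesothelial markers reached the filter. Which of these cells carried the cell cycle transcripts cannot be read from bulk RNA, and a change in the number of dividing cells and a change in RNA per cell cannot be told apart.

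Cells that enter the cycle induce D-type cyclins in G1, whose kinases phosphorylate the retinoblastoma protein and release E2F factors. E2F then turns on the genes of S phase, among them cyclin E, the MCM helicase, the sliding clamp PCNA and the enzymes of nucleotide synthesis. The genes of mitosis follow in G2 and M, driven by the MuvB complex with B-Myb and FoxM1. In fat cultures the precursor cells and macrophages can divide, whereas mature adipocytes have left the cycle.

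The members differ in the short sequences at their start sites, which the choice of genes did not use. RefSeq promoter windows on GRCm38.p6, 250 bases before and 50 bases after the annotated start, were at hand for 30 of the 37 members. In 22 of these 30 windows, bases just after the start were found in a known transcript of the gene. The others had no such match, so they may lie away from the start in use. For the CHR element that the MuvB complex reads, only the core letters TTTGAA were searched, on both strands. Other forms of the element were not, so a window without TTTGAA may still hold one. TTTGAA occurred in 13 of 18 mitotic windows (72.2%), in 1 of 12 S-phase windows (8.33%, Mcm2) and in 18.1% of all 27025 windows. Within 50 bases of the start the shares were 12 of 18 (66.7%), 0 of 12 and 4.92%. For the E2F site only the letters TTTCGCGC and TTTGGCGC were searched, on either strand. Other forms of the site were not, so a window without these letters may still hold one. They occurred in 4 of 12 S-phase windows (33.3%; Mcm3, Mcm5, Mcm6 and Mcm7), in 1 of 18 mitotic windows (5.56%, Cdk1) and in 0.833% of all windows. CCAAT, the letters of the NF-Y site, occurred in 16 of 18 mitotic windows (88.9%), 7 of 12 S-phase windows (58.3%) and 37.9% of all windows. All of these are matches of letters, described without a test, and the search was chosen after the expression values had been seen. The stretches below show one match each for 5 mitotic genes and 3 MCM genes, read 5′ to 3′ along the gene's strand, with the matched letters in capitals.
Cdk1: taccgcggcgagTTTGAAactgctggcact
Ccnb2: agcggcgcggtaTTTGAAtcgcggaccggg
Plk1: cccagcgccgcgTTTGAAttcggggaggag
Kif23: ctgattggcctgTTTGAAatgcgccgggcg
Cenpf: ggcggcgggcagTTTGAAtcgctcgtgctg
Mcm5: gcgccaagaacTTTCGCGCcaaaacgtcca
Mcm6: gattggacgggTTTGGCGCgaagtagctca
Mcm7: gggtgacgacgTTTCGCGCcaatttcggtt
These lie at chr10:69352910-69352939 (minus strand), chr9:70421533-70421562 (minus), chr7:122159453-122159482 (plus), chr9:61946780-61946809 (minus), chr1:189688067-189688096 (minus), chr8:75109345-75109374 (plus), chr1:128359734-128359763 (minus) and chr5:138171849-138171878 (minus) of GRCm38.p6, in the order of the lines. In the Mcm5 and Mcm6 windows matches on the 2 strands overlap, and in the Mcm7 window the match overlaps a CCAAT match.

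Levels of the members spanned from 0.987 FPKM, the mean over all 8 libraries for Cdc6, to 76.2 FPKM for Pcna, with a median of 9.46 FPKM. Between 171 and 10154 reads lay behind each value. Pcna stood at the 92.8 percentile of the tested genes and Ccnd1, at a mean of 62.1 FPKM, at the 91.4 percentile, while Cdc6 stood at the 8.75 percentile. Among the mitotic members the anaphase-promoting complex's ubiquitin-conjugating enzyme Ube2c (21.5 FPKM) and topoisomerase Top2a (19.7 FPKM) were the most abundant, with overlapping ranges over the libraries of 19.6 to 23.6 and 18.04 to 20.4 FPKM. The 2 genes at the low end were the kinetochore genes Cenpf (1.69 FPKM) and Cenpe (2.39 FPKM). Libraries of one group lay close together: the coefficient of variation of a member had a median of 5.14% among DoxSa libraries and 6.63% among DMSO libraries, and reached 14.01% and 14.2%. That spread was above counting error for most members, since the within-group chi-square of the reads per degree of freedom exceeded 2 for 30 of 37 and had a median of 4.52. The sources used here do not say whether reads were counted by strand, and 9 of 37 members overlap another protein-coding gene in RefSeq on GRCm38.p6 (Ccne2, E2f1, Mcm7, Tk1, Ccna2, Cdc20, Aurka, Kif20a and Ccnd1), so that their values may include reads of that neighbour; Cenpe, Cenpf and Mki67 overlap none.

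The comparison asked whether genes of DNA replication or of mitosis changed after DoxSa. Of the 37 members, 1 was higher in DoxSa cells and 0 were lower by limma's moderated test on log2(FPKM + 1), at a Benjamini-Hochberg adjusted p under 0.05 over all tested genes. Over all 12060 tested genes 3.88% were called higher and 2.02% lower, 5.9% in all, so that the members' share lay near or under the background. At an unadjusted p under 0.05 stood 2 members, both mitotic and both higher, against 19.8% of all genes. The member called was Cenpe, and it was also the 1 member whose groups did not overlap, where 12.5% of all genes were apart. Fold changes on that scale, DoxSa minus DMSO, ran from -0.11 to 0.24 with a median of 0.03, against a median of 0.01 over all tested genes. Their median size without sign was 0.0373 for the members and 0.0560 for all tested genes. The 95% interval of the fold change held 0 for 35 of 37 members.

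**Figure D1:**
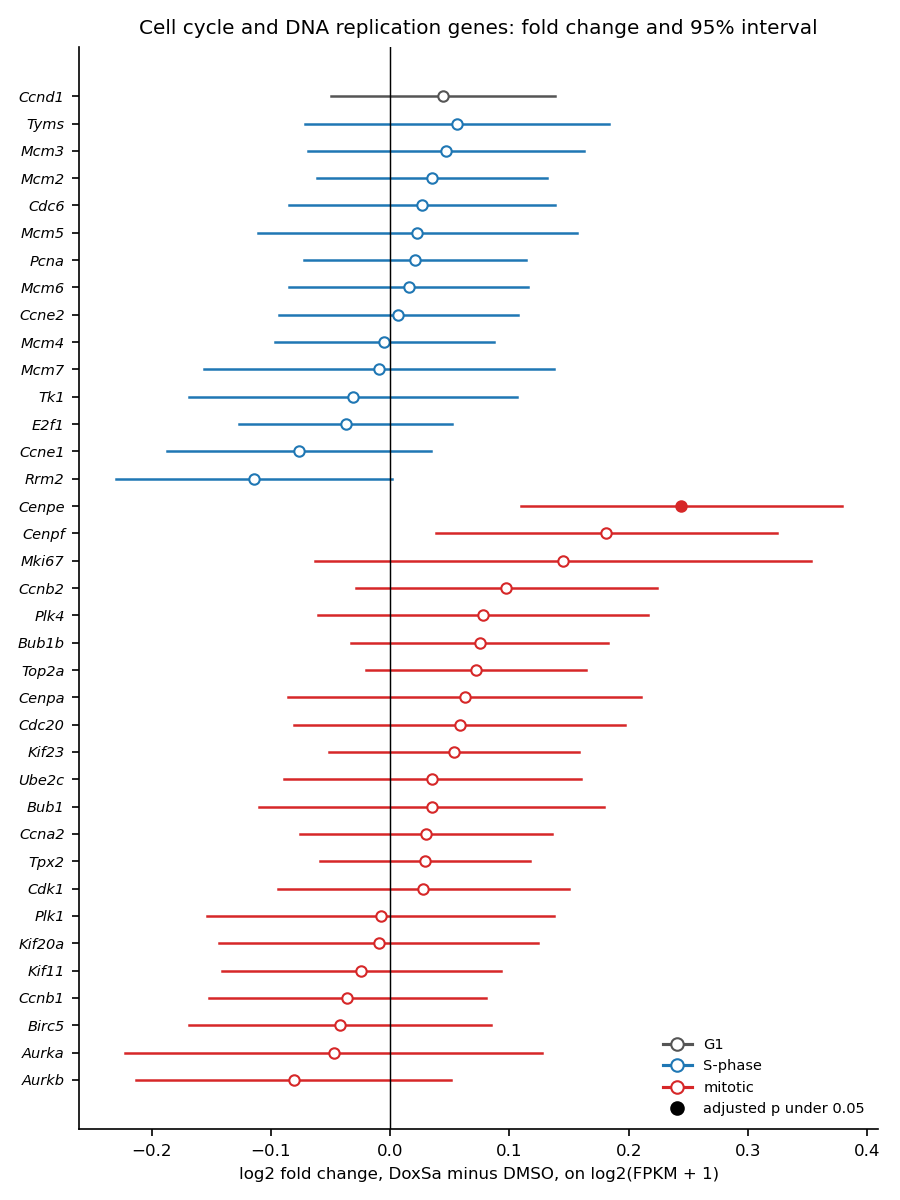
Fold change of each of the 37 members on log2(FPKM + 1), DoxSa minus DMSO (horizontal axis), with its 95% interval from limma (4 libraries each); rows are genes, coloured by class, and a filled point marks an adjusted p under 0.05. Only Cenpe is filled, at 0.24, and the intervals of 35 members cross 0.

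None of the 14 S-phase members was called by limma, none had an unadjusted p under 0.05, and none was called when the recovered reads were tested with voom. Their fold changes had a median of 0.01 and ran from -0.11 to 0.06, with 8 of 14 above 0, against 6839 of all 12060 tested genes. On the reads, where no pseudocount shrinks low genes, the 95% intervals of all 14 fell between 0.841-fold and 1.22-fold. These ends belong to single genes, Rrm2 and Cdc6. Each interval holds for its own gene alone, and together they set no limit on a change of the class.

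Cyclin E, which with Cdk2 drives entry into S phase, was measured through both its genes. Ccne1 had 7.95, 7.08, 7.32 and 7.24 FPKM in DoxSa cells, against 8.32, 7.24, 8.002 and 7.86 FPKM in DMSO cells, and differed by -0.08 ± 0.05 (SE; adjusted p = 0.446, limma). Ccne2 averaged 3.003 ± 0.132 FPKM in DoxSa cells and 2.98 ± 0.0899 FPKM in DMSO cells (SD, n = 4 each), a difference of 0.01 ± 0.05. E2f1, the activator of the S-phase genes, averaged 10.1 ± 0.302 and 10.4 ± 0.409 FPKM in DoxSa and DMSO cells, a difference of -0.04 ± 0.04. The groups overlapped for all 3 genes.

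Cdc6 loads the helicase onto origins in G1. It had 1.07, 1.01, 1.02 and 0.915 FPKM in DoxSa cells, against 0.874, 0.996, 1.02 and 0.989 FPKM in DMSO cells, a difference of 0.03 ± 0.05. Its spread within groups was no larger than counting error (chi-square per degree of freedom 0.835), and at this depth its reads allowed a fold between 0.882 and 1.22.

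The 6 MCM genes encode the ring of the replicative helicase, which holds 1 copy of each. Their levels were not equal: the mean over all 8 libraries was 14.6 FPKM for Mcm6, 11.6 for Mcm7, 10.8 for Mcm3, 9.96 for Mcm4, 7.45 for Mcm5 and 6.71 for Mcm2. In that order Mcm7, Mcm3 and Mcm4 overlapped in range, as did Mcm5 and Mcm2, while the lowest Mcm6 library (13.7 FPKM) lay above the highest Mcm7 library (12.6) and the lowest Mcm4 library (9.41) above the highest Mcm5 library (8.32). The most abundant, Mcm6, had 15.2, 14.98, 14.6 and 14.1 FPKM in DoxSa cells, against 15.6, 14.1, 14.8 and 13.7 FPKM in DMSO cells. Fold changes of the 6 ran from -0.01 (Mcm7, 11.6 ± 1.09 FPKM in DoxSa cells and 11.7 ± 0.809 FPKM in DMSO cells) to 0.05 (Mcm3, 11.002 ± 0.450 and 10.6 ± 0.769), each with an SE at least as large as its own size.

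Pcna, the clamp that tethers DNA polymerases, had 81.3, 78.4, 73.0 and 74.3 FPKM in DoxSa cells, against 76.7, 77.3, 77.2 and 71.3 FPKM in DMSO cells, a difference of 0.02 ± 0.04. The DoxSa values lay on both sides of the 3 nearly equal DMSO values, and the fourth DMSO library was lowest of all 8. Pseudogenes of Pcna, and also of the members Ccnb1, Ccnb2 and Tyms, exist in the mouse genome, so that reads could be split with them.

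The 3 members that make nucleotides were measured next. Rrm2, the small subunit of ribonucleotide reductase, had 14.4, 13.1, 13.7 and 13.1 FPKM in DoxSa cells, against 15.2, 15.2, 15.5 and 13.2 FPKM in DMSO cells. All DoxSa values lay under 3 of the DMSO values, and the fourth DMSO library fell inside the DoxSa range. Its fold change of -0.11 ± 0.05 was the lowest among the members (95% interval -0.23 to 0.0014, unadjusted p = 0.0524, adjusted p = 0.258, limma) and did not pass the test. Thymidylate synthase (Tyms) averaged 2.01 ± 0.152 FPKM in DoxSa cells and 1.90 ± 0.159 FPKM in DMSO cells, and the salvage enzyme thymidine kinase (Tk1) 10.2 ± 0.607 and 10.4 ± 0.996 FPKM. Their differences, 0.06 ± 0.06 and -0.03 ± 0.06, were no larger than their SE.

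Of the 22 mitotic members 1 was called higher and 0 lower, by limma and by voom on the recovered reads alike (voom called 7.83% of all genes in either direction), and none had an unadjusted p under 0.05 in the lower direction. The median fold change was 0.04, the range -0.08 to 0.24, and 15 of 22 were above 0, against 6839 of all 12060 tested genes. On the recovered reads the 95% intervals of the 22 lay between 0.834-fold and 1.43-fold.

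No mitotic cyclin or its kinase passed the test. Cdk1, the kinase that starts mitosis, averaged 9.56 ± 0.230 FPKM in DoxSa cells and 9.38 ± 0.811 FPKM in DMSO cells. Its partners were Ccnb1, with 12.5, 11.1, 11.2 and 11.1 FPKM in DoxSa cells, against 12.4, 11.9, 12.04 and 10.8 FPKM in DMSO cells, and Ccnb2, with 14.3, 13.9, 12.4 and 15.5 FPKM in DoxSa cells, against 13.4, 12.7, 13.1 and 12.7 FPKM in DMSO cells. Ccnb2 was above every DMSO library in 3 of 4 DoxSa libraries and lowest of all 8 in the other (0.10 ± 0.06, adjusted p = 0.388, limma), while Ccnb1 differed by -0.04 ± 0.05. Cyclin A2 (Ccna2), active in S phase and G2, averaged 12.2 ± 0.703 FPKM in DoxSa cells and 11.9 ± 0.522 FPKM in DMSO cells.

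No mitotic kinase passed the test. Aurkb, the kinase of the chromosomal passenger complex, had 5.49, 5.98, 6.19 and 6.07 FPKM in DoxSa cells, against 6.51, 6.42, 6.88 and 5.56 FPKM in DMSO cells, a difference of -0.08 ± 0.06 that did not pass the test (adjusted p = 0.514, limma). Its complex partner survivin (Birc5) differed by -0.04 ± 0.06, and the centrosomal kinase Aurka by -0.05 ± 0.08. Tpx2, which activates Aurka on the spindle, averaged 10.5 ± 0.408 FPKM in DoxSa cells and 10.3 ± 0.268 FPKM in DMSO cells. Plk1, a kinase of mitotic entry and exit, differed by -0.01 ± 0.07. Plk4, which starts the duplication of centrioles, had 3.61, 3.48, 3.44 and 3.56 FPKM in DoxSa cells, against 3.06, 3.32, 2.96 and 3.85 FPKM in DMSO cells; its DoxSa values lay inside the wider DMSO range (0.08 ± 0.06).

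Nor did any gene of the spindle checkpoint or of the ubiquitin ligase it restrains. Bub1 and Bub1b, checkpoint proteins at the kinetochore, differed by 0.03 ± 0.07 and 0.07 ± 0.05. Cdc20, the activator of the anaphase-promoting complex, averaged 11.4 ± 0.933 FPKM in DoxSa cells and 10.9 ± 0.817 FPKM in DMSO cells, and Ube2c 21.8 ± 1.79 and 21.2 ± 0.988 FPKM. The motors Kif11 (spindle bipolarity), Kif20a and Kif23 (cytokinesis) had fold changes of -0.02, -0.01 and 0.05, each with an SE of 0.05 or 0.06. Top2a, which untangles chromosomes, had 20.3, 20.04, 19.99 and 20.3 FPKM in DoxSa cells, against 18.4, 18.04, 20.4 and 19.8 FPKM in DMSO cells. The DoxSa libraries were nearly identical, and 1 DMSO library reached above them (0.07 ± 0.04, adjusted p = 0.384, limma).

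The kinetochore members held the 1 call. Cenpe, the motor protein that moves chromosomes to the spindle equator, had 2.62, 2.50, 2.55 and 3.05 FPKM in DoxSa cells, against 2.02, 1.91, 2.26 and 2.22 FPKM in DMSO cells. Every DoxSa library lay above every DMSO library. The means were 2.68 ± 0.252 FPKM in DoxSa cells and 2.10 ± 0.166 FPKM in DMSO cells (SD, n = 4 each), a fold change of 0.24 ± 0.06 (95% interval 0.11 to 0.38, adjusted p = 0.0407, limma). Behind these stood 846, 775, 814 and 984 reads in DoxSa cells and 645, 585, 718 and 712 reads in DMSO cells. On the reads the fold was 1.27 (95% interval 1.13 to 1.43, adjusted p = 0.0108, voom). The call was near its threshold: without any 1 of the 8 libraries the adjusted p was between 0.0522 and 0.112, and rescaling the libraries to equal FPKM sums gave 0.0505.

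Cenpe is also shown by its promoter window, because it is the member called. It holds CCAAT but no TTTGAA in the 300 bases of its window, chr3:135212313-135212612 on the plus strand of GRCm38.p6. Other forms of the CHR element were not searched, so the window may still hold one. The capitals mark the CCAAT match.
Cenpe: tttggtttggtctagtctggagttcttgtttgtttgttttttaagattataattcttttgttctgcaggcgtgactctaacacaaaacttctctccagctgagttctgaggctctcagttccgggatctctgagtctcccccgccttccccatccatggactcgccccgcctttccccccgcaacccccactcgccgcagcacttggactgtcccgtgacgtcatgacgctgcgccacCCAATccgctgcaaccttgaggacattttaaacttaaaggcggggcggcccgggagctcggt

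Cenpf, a large protein of the outer kinetochore, was next in size. It had 1.91, 1.53, 1.93 and 2.08 FPKM in DoxSa cells, against 1.39, 1.58, 1.503 and 1.604 FPKM in DMSO cells. In 3 of 4 DoxSa libraries it was above all DMSO libraries, and in the second DoxSa library it was inside their range. Its fold change of 0.18 ± 0.07 did not pass the test (unadjusted p = 0.0176, adjusted p = 0.146, limma), and on the reads the fold was 1.22 (95% interval 1.08 to 1.39, adjusted p = 0.0538, voom). Without the second DoxSa library it was the member called, and Cenpe was not. Cenpa, the histone H3 variant of centromeres, averaged 9.31 ± 0.830 FPKM in DoxSa cells and 8.87 ± 0.749 FPKM in DMSO cells and was not called (0.06 ± 0.07).

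Mki67, the proliferation antigen Ki-67 that coats mitotic chromosomes, had 11.2, 8.59, 10.5 and 12.1 FPKM in DoxSa cells, against 8.43, 8.65, 10.3 and 10.4 FPKM in DMSO cells. The groups overlapped widely, and the fold change of 0.14 ± 0.09 did not pass the test (adjusted p = 0.443, limma). Its libraries spread further beyond counting error than those of any other member, with a within-group chi-square of 68.0 per degree of freedom.

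**Figure D2:**
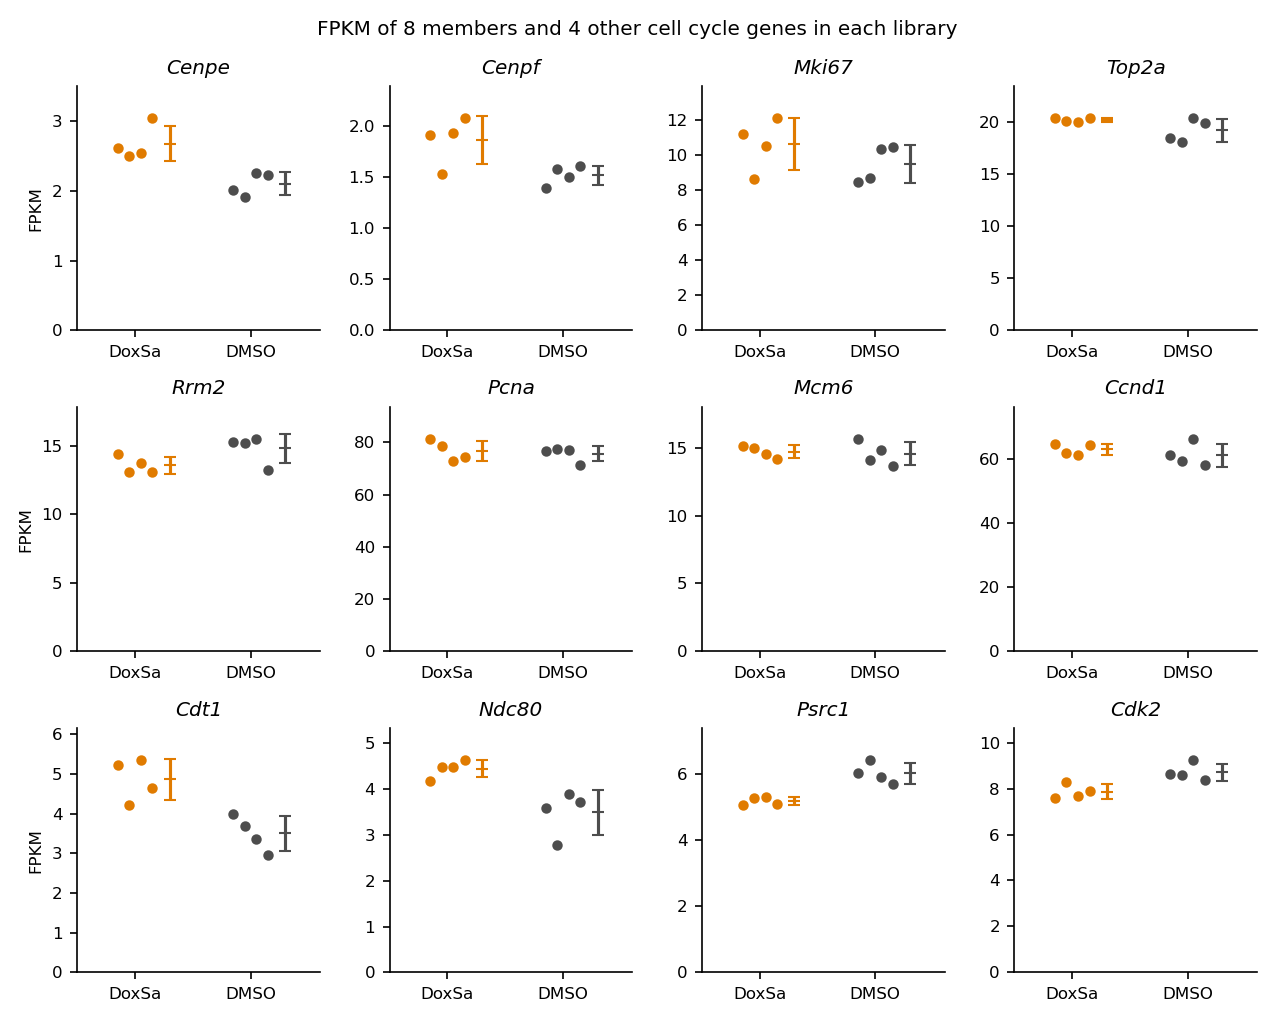
FPKM of 8 members (top 2 rows) and of 4 other cell cycle genes (bottom row) in each library; points are libraries 1 to 4 from left to right, DoxSa left and DMSO right, bars are mean ± SD (n = 4), and each panel has its own axis from 0. Cenpe is apart between the groups, at 2.50 to 3.05 FPKM in DoxSa cells and 1.91 to 2.26 FPKM in DMSO cells, while the other 7 members overlap. The 4 genes of the bottom row are apart, as were 12.5% of all tested genes. Of that row, Cdt1, Ndc80 and Psrc1 were named because limma called them on the same values.

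Cenpe, Mki67 and Cenpf, the 3 highest fold changes, were also the 3 longest members, at 7813, 10257 and 11365 bases of gene length behind the FPKM. The other 34 members were all under 6000 bases and had a median fold change on the reads, in log2, of 0.03, against 0.29 for these 3. Across the 37 members length and fold change were correlated with a Spearman rho of 0.43, and across the 14 S-phase members with 0.61; genes are not independent replicates, and no test is given. Over all tested genes rho was -0.03. Among 62 further mitotic genes, listed below, rho was 0.22, and the 11 over 6000 bases had a median of 0.0991 with 6 of 11 above 0, against 0.0364 for the 51 shorter ones. The order was the other way among 50 further replication genes, where the 7 over 6000 bases had a median of -0.0121 with 3 of 7 above 0, against 0.0239 for the 43 shorter ones. Over all tested genes the medians were 0.00828 for the 2766 over 6000 bases and 0.0172 for the 9294 others. In the second DoxSa library, the lowest of its group for Cenpe, Cenpf and Mki67, genes over 8000 bases had a median deviation of -0.0389 and genes up to 1000 bases of 0.0525 from their means over the libraries, on the log2 scale. The part of gene length in these fold changes was not tested.

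**Figure D3:**
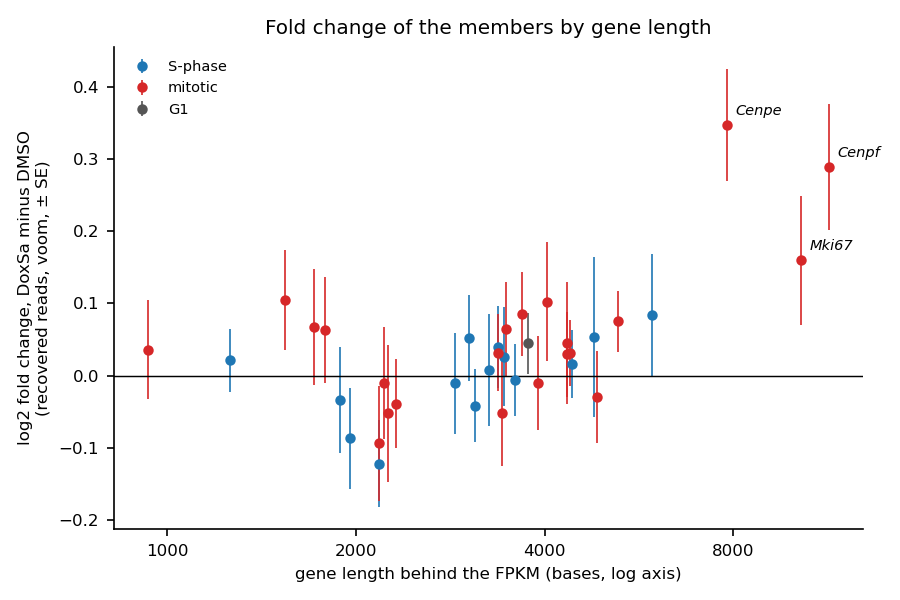
Fold change of each of the 37 members on the recovered reads (log2, voom, ± SE; vertical axis) against the gene length behind its FPKM in bases (log axis), coloured by class. The 3 members over 6000 bases, Cenpe, Mki67 and Cenpf, have the highest fold changes. The other 34 have a median of 0.03 and run from -0.12 (Rrm2) to 0.10 (Ccnb2).

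Ccnd1, the G1 cyclin that links growth signals to the cycle, was the second most abundant member. It had 64.7, 61.9, 61.3 and 64.3 FPKM in DoxSa cells, against 61.1, 59.4, 66.2 and 57.9 FPKM in DMSO cells. The groups overlapped, with a difference of 0.04 ± 0.04 (95% interval -0.05 to 0.14, adjusted p = 0.638, limma).

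Taken library by library, S-phase and mitotic members did not separate the groups. The mean log2 level of the 14 S-phase members, relative to its mean over the 8 libraries, was 0.04, 0.01, -0.02 and -0.03 in DoxSa libraries 1 to 4, against 0.04, -0.01, 0.04 and -0.06 in DMSO libraries 1 to 4. That of the 22 mitotic members was 0.03, 0.02, -0.01 and 0.05 in DoxSa libraries, against -0.01, -0.04, 0.03 and -0.06 in DMSO libraries. The mitotic minus the S-phase level, which sets one class against the other within a library, was -0.00884, 0.0164, 0.0117 and 0.0756 in DoxSa libraries, against -0.0512, -0.0278, -0.0156 and -0.000257 in DMSO libraries. DoxSa libraries 2 to 4 lay above every DMSO library and DoxSa 1 lay inside the DMSO range. Because the members were chosen with results known, no p is given for these scores. The fourth DMSO library was the lowest of all 8 for 13 of 37 members, 5 of them S-phase and 7 mitotic, where it was the lowest for 25.0% of all tested genes.

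**Figure D4:**
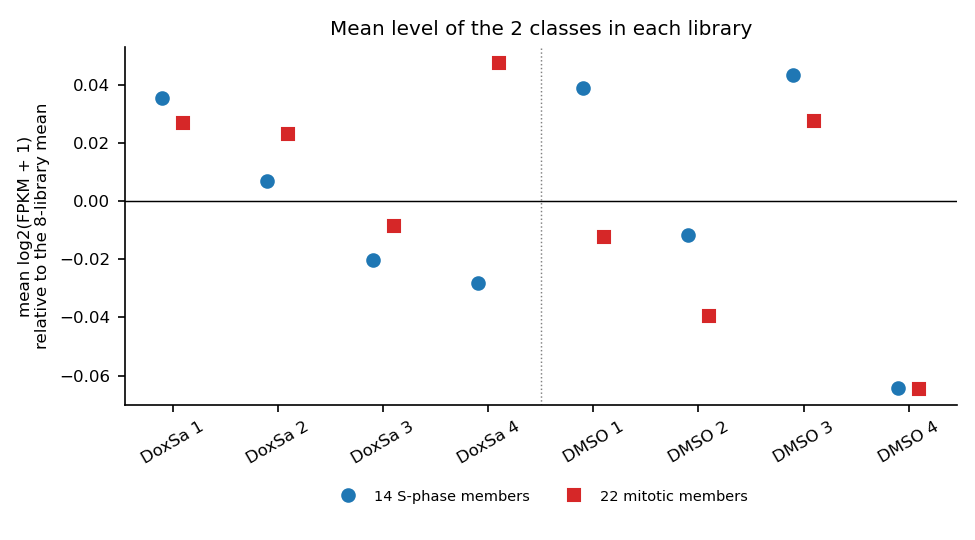
Mean log2(FPKM + 1) of the 14 S-phase members (circles) and the 22 mitotic members (squares) in each library, relative to the mean over the 8 libraries (vertical axis), with the DoxSa libraries left of the dotted line and the DMSO libraries right of it. Both classes overlap between the groups, and both are lowest in DMSO 4, at -0.06.

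Genes of the same processes outside the 37 were read from 3 longer lists. Of 50 further replication genes tested (of 51 listed; polymerases, clamp loader, GINS, origin complex, licensing and nucleotide supply), 1 was called higher and 0 lower, with a median of 0.01 and 28 of 50 above 0. Over all tested genes 3.88% were called higher and 2.02% lower. The groups did not overlap for 4 of the 50, against 12.5% of all tested genes. The gene called was Cdt1, the licensing factor that brings MCM rings to origins with Cdc6. Cdt1 had 5.22, 4.22, 5.35 and 4.65 FPKM in DoxSa cells, against 3.99, 3.69, 3.36 and 2.96 FPKM in DMSO cells, and the groups were apart. Its fold change was 0.38 ± 0.08 (adjusted p = 0.0193, limma), and on the reads 1.39-fold (95% interval 1.19 to 1.63). The call was lost without the first DoxSa library (adjusted p = 0.0618, limma) and without the third (adjusted p = 0.0564, limma). Cdt1's inhibitor geminin (Gmnn) differed by 0.02 and was not called.

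Of the 62 further mitotic genes 1 was called higher and 1 lower by limma, with a median of 0.03 and 46 of 62 above 0. Over all tested genes limma called 3.88% higher and 2.02% lower. On the recovered reads voom called 2 higher and 0 lower, Ndc80 and Aspm, and 7.83% of all tested genes in either direction. The groups did not overlap for 6 of the 62, against 12.5% of all tested genes. The one called higher by limma was Ndc80, the kinetochore protein that grips microtubules, with 4.18, 4.49, 4.48 and 4.64 FPKM in DoxSa cells, against 3.59, 2.78, 3.88 and 3.73 FPKM in DMSO cells (0.28 ± 0.07, adjusted p = 0.0491, limma). The other subunits of its complex, Nuf2, Spc24 and Spc25, were not called, with fold changes of -0.03, -0.03 and 0.01. The lower one was Psrc1, a spindle protein, which had 5.04, 5.26, 5.31 and 5.09 FPKM in DoxSa cells, against 6.02, 6.41, 5.90 and 5.69 FPKM in DMSO cells (-0.18 ± 0.04, adjusted p = 0.0379, limma). On the reads Psrc1 did not pass (adjusted p = 0.115, voom). Aspm, a spindle pole protein, averaged 1.47 ± 0.0684 FPKM in DoxSa cells and 1.23 ± 0.0867 FPKM in DMSO cells, with the groups apart; it was called on the reads (1.204-fold, adjusted p = 0.0287, voom) and not by limma (0.15 ± 0.05, adjusted p = 0.111). Both calls were near the threshold: with 1 library left out, Ndc80 was called only without the third DMSO library (limma adjusted p over the 8 choices 0.0437 to 0.117) and Psrc1 only without the fourth (0.0333 to 0.105).

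Of 41 regulators of G1, S-phase entry and quiescence tested (of 42 listed), 0 were called higher and 1 lower, with a median of -0.00592, where 3.88% of all tested genes were called higher and 2.02% lower. At an unadjusted p under 0.05 stood 12 of the 41, against 19.8% of all tested genes. The gene called was Cdkn2b, the inhibitor p15 of the cyclin D kinases, with 22.2, 21.2, 20.3 and 24.2 FPKM in DoxSa cells, against 26.2, 27.4, 27.9 and 25.1 FPKM in DMSO cells (-0.27 ± 0.05, adjusted p = 0.0151, limma); without the second DoxSa library the adjusted p was 0.0514. The inhibitor p21 (Cdkn1a), a target of p53 and the more abundant of the 2, averaged 152 ± 3.67 FPKM in DoxSa cells and 153 ± 5.43 FPKM in DMSO cells. The inhibitor p27 (Cdkn1b) differed by -0.10 ± 0.04 (adjusted p = 0.159, limma).

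The groups did not overlap for 6 of the 41 regulators, near the 12.5% of all tested genes for which they did not. Beside Cdkn2b these were Myc, Cdk2, Ccnd2, Cdkn1c and E2f2, none of which passed the test by limma. Myc, a growth factor target and driver of G1, had 18.3, 20.9, 19.0 and 18.6 FPKM in DoxSa cells, against 17.2, 12.9, 17.9 and 13.8 FPKM in DMSO cells (0.30 ± 0.09, adjusted p = 0.0757, limma); on the reads it was called (1.25-fold, adjusted p = 0.0282, voom), as it was by limma without the first DMSO library (adjusted p = 0.0489) or the third (adjusted p = 0.0354). Cdk2, the kinase partner of cyclins E and A, had 7.59, 8.29, 7.68 and 7.90 FPKM in DoxSa cells, against 8.62, 8.59, 9.25 and 8.35 FPKM in DMSO cells (-0.13 ± 0.04, adjusted p = 0.123, limma). Cyclin D2 (Ccnd2) had 29.0, 27.6, 29.6 and 30.2 FPKM in DoxSa cells, against 30.4, 31.2, 32.5 and 33.2 FPKM in DMSO cells (-0.13 ± 0.04, adjusted p = 0.102, limma). The inhibitor p57 (Cdkn1c) averaged 2.16 ± 0.201 FPKM in DoxSa cells and 2.76 ± 0.378 FPKM in DMSO cells (-0.25 ± 0.07, adjusted p = 0.0765, limma), and the activator E2f2 averaged 1.09 ± 0.0542 FPKM in DoxSa cells and 1.31 ± 0.0711 FPKM in DMSO cells (-0.15 ± 0.05, adjusted p = 0.118, limma). Of the other D-type partners, Ccnd3 differed by -0.10 ± 0.04, Cdk4 by 0.05 ± 0.03 and Cdk6 by 0.06 ± 0.06, and none was called.

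The factors that switch on the mitotic genes, Foxm1 and B-Myb (Mybl2), differed by 0.02 ± 0.04 and 0.06 ± 0.06, and the E2F repressors E2f7 and E2f8 by -0.01 ± 0.06 and -0.06 ± 0.09. None of the 4 was called. By the pathway terms in the deposited annotation, 5 of 148 tested KEGG cell cycle genes were higher in DoxSa cells and 3 lower, with a median of 0.02, near the 3.88% and 2.02% of all tested genes called. Of 34 tested KEGG DNA replication genes none was called by limma or voom, 3 had an unadjusted p under 0.05, and the median was 0.02.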

How the data were processed

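RNA of 8 cultures, 4 given DoxSa and 4 given DMSO, was extracted with TRIzol and made into libraries with the VAHTS Universal V6 kit, per the labels' protocols. Reads were processed with HISAT2 and HTSeq on GRCm39, per the submitters' processing notes, with no version, annotation or strand setting stated in the sources used here. The values deposited by the authors are FPKM per gene. The 37 members and all gene lists were chosen with earlier results of these data known.

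Genes averaging 0.5 FPKM or more were tested on log2(FPKM + 1) with limma 3.58.1 (R 4.3.3; intensity trend, two-sided, Benjamini-Hochberg over all 12060 tested genes, no replicate block), so that fold changes of low genes are understated. Library totals were recovered from the low FPKM values, and each gene's length and whole reads were then inferred from its own values. Within 0.001 of a whole number, all 12060 tested genes gave whole reads, and voom on them was an alternative. It called 944 genes, against 712 for limma on FPKM. The recovered totals of 39213008 to 41365861 reads per library set the depth. Intervals are at 95%. All members are described; of 3 further lists, called genes with the smallest adjusted p (up to 4 each way) and 12 fixed regulators are named; Gmnn, Nuf2, Spc24, Spc25, Aspm, Cdkn1c and E2f2 were added after their values were seen. Fits and read recovery were tested on simulated data.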

Additional observations from a re-analysis of the deposited data

Results flagged for a closer look

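Over the 74 sets of 4 libraries formed by 37 members and 2 groups, 3 held a library far from its other 3; chance alone marks about 1 in 20 such sets. Ccnb1 was highest in DoxSa 1, at 12.49 FPKM, where the other DoxSa libraries had 11.1 to 11.2 FPKM. Rrm2 was lowest in DMSO 4, at 13.25 FPKM, where the other DMSO libraries had 15.2 to 15.5 FPKM. Pcna was lowest in DMSO 4 too, at 71.33 FPKM, where the other DMSO libraries had 76.7 to 77.3 FPKM. The last 2 fall in the library that was lowest of all 8 for 13 of 37 members and for 25.0% of tested genes.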

How the results depend on the processing

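Over 18 alternatives no S-phase member was called in any setting and no member was called lower. The 1 member called higher, which is also the 1 mitotic member called higher, became 0 with no filter on low values and under 3 other scalings (equal FPKM sums, median of ratios, quantile); the adjusted p of Cenpe was then 0.138, 0.0505, 0.0594 and 0.0672. Leaving out 1 library gave 0 to 1 members and 0 to 1 mitotic members called higher; the 1 (without DoxSa replicate 2) was Cenpf. Cenpe was called in 6 of 18 alternatives, with an adjusted p of 0.0108 to 0.138.

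Over all genes, 468 higher and 244 lower became 158 and 108 with no filter, a setting that fitted 22962 genes. The reason for the drop was not tested. Leaving out 1 library gave 233 to 490 higher and 152 to 235 lower; without DoxSa replicate 1, 247 and 154 were called, without DoxSa replicate 2, 233 and 152, without DoxSa replicate 3, 308 higher, and without DMSO replicate 2, 158 lower. Quantile normalization gave 384 higher and 316 lower, a share higher of 54.9% against 65.7%.

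With the replicate number as a block, 415 genes were higher and 209 lower, with 1 member higher. Pairing by number was not seen in the values: deviations of same-numbered libraries correlated at -0.0581, 0.0519, -0.0989 and 0.0654, and not every library correlated best with its own number. How the cultures were set up cannot be read from these correlations.

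Uncalled fold changes changed sign in 36 of 663 pairs of member and setting, in 14 members, 35 of these within 1 SE; Cdk1 ran from -0.0289 to 0.0558 as libraries were left out. Cdt1 was called in 15 of 18 alternatives, Cdkn2b in 16, Psrc1 in 8, Ndc80 in 4 and Myc in 3; Cdt1 was not called with no filter (adjusted p = 0.104), without DoxSa replicate 1 (0.0618) or without DoxSa replicate 3 (0.0564), by limma. Depth limits low members most: at 171 to 212 reads, the interval of Cdc6 spans 0.882-fold to 1.22-fold.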

Other observations

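Among the 154 genes under the KEGG cell cycle or DNA replication terms of the deposited annotation that are not among the 37, 8 were called by limma, a set named after the values were seen; over all tested genes 5.9% were called, so that the count lies near the background. Beside Cdt1, Ndc80 and Cdkn2b they were Gadd45a, Gadd45g, Trp53, Tgfb1 and Tgfb3. Gadd45a, a stress-induced growth arrest gene, averaged 20.8 ± 0.707 FPKM in DoxSa cells and 15.1 ± 2.08 FPKM in DMSO cells (SD, n = 4 each; log2 fold change 0.45 ± 0.08). Its relative Gadd45g averaged 36.9 ± 1.497 FPKM in DoxSa cells and 49.8 ± 3.20 FPKM in DMSO cells (-0.42 ± 0.05). Trp53, which encodes p53, averaged 21.1 ± 0.260 FPKM in DoxSa cells and 18.8 ± 0.704 FPKM in DMSO cells (0.16 ± 0.04). Of the TGF-beta ligands, which restrain the cycle in many cells, Tgfb1 averaged 55.7 ± 0.982 FPKM in DoxSa cells and 49.3 ± 2.34 FPKM in DMSO cells (0.17 ± 0.04), and Tgfb3 averaged 6.47 ± 0.482 FPKM in DoxSa cells and 9.14 ± 0.628 FPKM in DMSO cells (-0.44 ± 0.06). In all 8 genes the groups were apart, but the 8 were picked by a test on the same values. Of the 154 genes the groups were apart in 24, against 12.5% of all tested genes.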
